A study of Drosophila melanogaster with 32 samples.

Results

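Whole-brain RNA of Drosophila melanogaster larvae of instar 3 was compared between ato mutants and wild type across all genes. The libraries compared are the 2 ato inputs and the 2 wild-type inputs, each the sum of 4 sequencing runs, and they hold 16 of the 32 runs of the series. Wild-type larvae carried ipcGal4 and UASRpl10Ab::GFP, a driver and a ribosomal protein fused to green fluorescent protein. The ato larvae carried the same driver and transgene together with ato1, an allele given in the labels as loss of function. Every library came from a pool of 500 brains of animals kept at 25 °C, and the input was the 10% of the homogenate that was not immunoprecipitated. The remainder of each homogenate was immunoprecipitated with anti-GFP and gave the IP libraries. These were compared between genotypes at the end only, but all 8 libraries entered the fit from which the spread in each main test was estimated. All groups thus carry the tagged ribosomal protein, driven in the cells the series names as T4 and T5 neurons. The labels give no sex, no genetic background beyond these alleles and no statement on whether the 2 preparations of a genotype came from separate crosses. P-values therefore measure the spread between these libraries only.

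The gene ato encodes Atonal, a proneural bHLH transcription factor that starts the differentiation of the founder photoreceptor R8 in the eye disc and of chordotonal sensory organs. R8 recruits the other photoreceptors through the EGF receptor ligand Spitz. Photoreceptor axons then grow into the optic lobe and deliver Hedgehog and Spitz, which induce the neurons of the lamina, the first optic neuropil. In the optic lobe ato also acts in the progenitors of T4 and T5 neurons, which detect the direction of motion.

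The wild-type inputs held 12238648 and 10099533 counts and the ato inputs 8193052 and 9887284. Levels are given as CPM, the usual depth-scaled unit of count libraries, here with TMM scaling of library sizes, always in the order of replicate 1 and replicate 2. A level of 3 counts in an input library equals 0.245 to 0.366 CPM. Replicates correlated across genes at 0.982 in wild type and 0.970 in ato, a description only, since genes of a library depend on each other. The first principal axis of the 4 inputs held 63.6% of the variance and separated the genotypes, and the second held 21.9% and separated ato input 1 from ato input 2. The tissue label was set against markers of neurons and glia. The 7 neuronal markers, such as the RNA-binding protein gene elav, summed to 1267 and 1411 CPM in wild type and 1319 and 1412 in ato, and the 17 glial markers to 1718 to 2442 CPM over the 4 inputs. RNA of other tissues was also present: 12 muscle genes summed to 138 and 138 CPM in wild type and 622 and 350 in ato.

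The ato transcript was close in level between genotypes. It lies at chr3R:4103514-4104996 (dm3, plus strand, 1 exon) and read 12.9 and 12.8 CPM in wild type and 15.6 and 15.0 in ato. The log2 change was 0.25 ± 0.30 (SE), with an edgeR adjusted p of 0.671. The known lesions of the ato1 allele are base changes in the coding sequence, so a transcript level does not check the genotype. RpL10Ab, whose counts include any reads of the tagged copy, read 1997 and 1831 CPM in wild type and 2522 and 2105 in ato (log2 0.27 ± 0.21, adjusted p = 0.473). Noncoding RNAs of the male X chromosome, roX1 and roX2, were abundant in every input. The level of roX1 was 1493 and 1623 CPM in wild type and 1121 and 1075 in ato (log2 -0.50 ± 0.16, adjusted p = 0.0632), and roX2 had a log2 change of -0.33 ± 0.21 (0.391). A call for roX1 was gained with no filter on low counts (0.0349), the DESeq2 Wald test (0.00909) and only the 4 inputs in the fit (0.0423), and in no other setting. The value of w, the eye pigment transporter gene that also marks many fly transgenes, was 11.3 and 7.81 CPM in wild type and 3.52 and 2.22 in ato (log2 -1.74 ± 0.50, adjusted p = 0.0447). The w call was lost without ato input 1 (0.0743), ato input 2 (0.174), wild-type input 1 (0.223) or wild-type input 2 (0.0546), with limma-voom (0.0737) and with a filter of 5 CPM (0.0574). In bulk libraries such as these, fewer cells of a type and less RNA per cell cannot be told apart.

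In all, 474 genes were higher and 239 lower in ato whole brain by edgeR's quasi-likelihood test at an adjusted p below 0.05, of 10224 tested. This is 6.97% of the genes, or 4.64% higher and 2.34% lower, and it is the background against which each gene group below is set. An unadjusted p below 0.05 by edgeR, in either direction, was reached by 2184 of the 10224 genes, the background for counts at that level. The median log2 change over all tested genes was 0.01. Low-level genes had higher values as a whole: the median was 0.58 in the lowest sixth by mean input CPM, up to 1.71 CPM. In the next sixth, up to 12.6 CPM, it was 0.29, and 8.98% were called higher. The part of this trend in the medians of low-level lists below, such as channels, transmitter genes, nicotinic receptors and cytochrome P450 genes, was not tested. Increases were larger than decreases: the median log2 change of the called genes was 1.72 for those higher and -0.97 for those lower. At least 2-fold differences were seen for 377 called genes that were higher and 115 that were lower, and at least 8-fold differences for 139 and 24. Among the called genes, 41 had 0 counts in both wild-type inputs and 6 had 0 counts in both ato inputs. Leaving out single libraries lowered these counts: 405 of the 713 calls were kept without ato input 1, 466 without ato input 2, 373 without wild-type input 1 and 307 without wild-type input 2. The calls that survived each of the 4 fits numbered 232, of which 177 were higher and 55 lower. Each test was repeated under 13 alternative settings, those without a library among them. In what follows a named gene kept its call in all 13 unless the settings that lost it are given with their adjusted p.

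**Figure D1:**
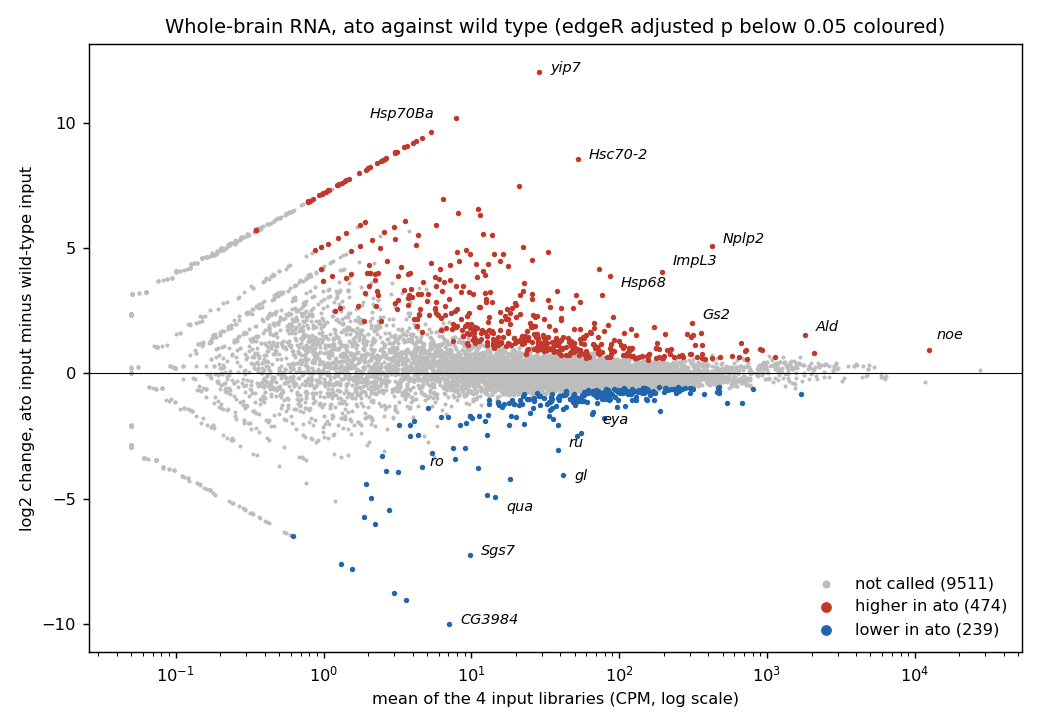
Log2 change from wild-type input to ato input (vertical) against the mean level of the 4 input libraries in CPM (horizontal, log scale), 1 point per tested gene, with the 474 genes called higher in red and the 239 called lower in blue. The red points reach farther from 0 than the blue ones, and the straight diagonal rows at low level are genes with 0 counts in 1 genotype.

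The eye and the photoreceptor supplied several of the largest decreases. The zinc finger factor gene gl (glass), needed for photoreceptor differentiation, lies at chr3R:14193649-14198460 and read 82.6 and 75.6 CPM in wild type and 4.27 and 5.15 in ato. The groups did not overlap, which on its own held for 26.4% of all genes in this direction, and gl was 16.7-fold lower (log2 -4.06 ± 0.26, edgeR adjusted p = 9.29e-08). The homeobox gene ro (rough), which patterns the photoreceptor cluster, read 16.3 and 11.9 CPM against 1.63 and 1.01 (10.7-fold lower, -3.42 ± 0.52, 0.000531). The adhesion protein gene chp (chaoptin), a membrane marker of photoreceptors, read 12.7 and 14.2 CPM against 3.52 and 2.93 (-2.06 ± 0.42, 0.00502), a call lost with 1 run per library (0.0772). The Runx factor gene lz (lozenge), which acts in cells of the eye and of the blood, read 7.35 and 5.66 CPM against 1.26 and 1.01 (-2.52 ± 0.58, 0.0125). Its call was lost without ato input 2 (0.0646) or wild-type input 1 (0.0651), with limma-voom (0.0545) and with 1 run per library (0.232).

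Of the 14 tested genes in the photoreceptor and eye disc list, these 4 were lower and 0 higher, and the list's median log2 change was -0.97. The count was 3 without ato input 2, without wild-type input 1 or with limma-voom, and 2 with 1 run per library. The 14 genes together read 171 and 151 CPM in wild type and 51.5 and 57.5 in ato. The other 10 were mostly low. The receptor gene sev, which acts in the photoreceptor R7, read 19.7 and 14.6 CPM against 8.67 and 15.1 (log2 -0.52, adjusted p = 0.416), so that its groups overlapped. Its ligand gene boss was at 0.735 and 0.781 CPM in wild type and at 0 and 0.202 in ato (adjusted p = 0.227), around the level of 3 counts. Genes of phototransduction were at a few CPM or less: ninaC had a log2 change of -1.16 (adjusted p = 0.395), inaD of -0.78 (0.654), Arr2 of -0.71 (0.788) and trp of 0.64 (0.870). The opsin genes Rh5 (0.05, 0.997) and Rh6 (0.13, 0.975) and the homeobox gene Pph13 (-1.21, 0.605) were below 2 CPM in each input. The phospholipase C gene norpA was the most abundant of these, at 21.3 and 19.6 CPM against 25.1 and 26.6 (0.34, 0.437). Arr1 had 5 counts in wild-type input 1 and 0 in the other inputs and was not tested. The larval eye disc is attached to the brain, and the labels do not say whether it was removed. The 6 imaginal disc markers vg, nub, al, ss, Dll and eyg summed to 157 and 150 CPM in wild type and to 120 and 107 in ato. None of the 6 was called by edgeR, DESeq2 or limma-voom, 3 had an unadjusted p below 0.05, and their part in the eye result was not tested.

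Some genes of EGF receptor signalling were lower too. The protease gene ru (roughoid), which releases Spitz in the developing eye, lies at chr3L:1370620-1387435 and read 54.6 and 83.0 CPM in wild type and 10.1 and 6.26 in ato, without overlap. It was 8.49-fold lower (log2 -3.08 ± 0.33, edgeR adjusted p = 1.77e-05). The gene aop (yan), whose product represses targets of the pathway until it is phosphorylated, read 199 and 220 CPM against 97.2 and 105 (2.07-fold lower, -1.05 ± 0.17, 0.000794). The receptor gene Egfr itself read 55.3 and 69.6 CPM against 22.3 and 38.3 (-1.04 ± 0.26, 0.0230), a call that did not hold without ato input 1 (0.222) or wild-type input 2 (0.210). The ligand gene spi (Spitz) read 301 and 291 CPM against 185 and 217 (-0.56 ± 0.16, 0.0480). The spi call was lost without ato input 1 (0.236), ato input 2 (0.0574), wild-type input 1 (0.282) or wild-type input 2 (0.260), with 1 run per library (0.0709) and with the filter of 5 CPM (0.0502). These 4 were all the calls among the 21 genes of the pathway list. All 21 log2 changes were below 0, from -3.08 to -0.09, with a median of -0.33. The list's count was 2 without ato input 1 or wild-type input 2.

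In the lamina list, 4 of 13 genes were lower and 0 higher, with a median log2 change of -0.53. The transcriptional cofactor gene eya, which acts in eye determination and in the lamina, lies at chr2L:6527449-6546972 and read 98.7 and 97.8 CPM in wild type and 35.5 and 29.2 in ato. It was 3.04-fold lower (-1.61 ± 0.23, edgeR adjusted p = 0.000235). The nuclear factor gene dac, a marker of lamina precursors that is also used in T4 and T5 neurons, read 93.9 and 91.2 CPM against 51.3 and 44.4 (1.94-fold lower, -0.95 ± 0.18, 0.00306). For both genes the wild-type libraries lay close together and well above the ato libraries. The orphan nuclear receptor gene tll read 48.0 and 54.3 CPM against 30.0 and 24.5 (-0.91 ± 0.23, 0.0201), a call lost without ato input 2 (0.115), wild-type input 1 (0.0713) or wild-type input 2 (0.211) and with 1 run per library (0.0723). The LIM homeobox gene ap read 120 and 134 CPM against 76.1 and 81.9 (-0.68 ± 0.17, 0.0224), and was lost without ato input 1 (0.109), ato input 2 (0.0538), wild-type input 1 (0.0959) or wild-type input 2 (0.283) and with 1 run per library (0.0987). The count of the list was 2 without ato input 2, wild-type input 1 or wild-type input 2 and with 1 run per library.

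The remaining lamina genes did not pass the main test. The glial and lamina neuron determination genes gcm (11.9 and 15.3 CPM against 11.6 and 7.37, log2 -0.53, adjusted p = 0.422) and gcm2 (13.6 and 19.1 against 8.42 and 5.35, -1.25, 0.0537) both had negative values. The gcm2 call was gained with no filter (0.0248), the DESeq2 Wald test (0.0499), limma-voom (0.0437) and only the 4 inputs (0.0474), where the list's count was 5. Negative values were also seen for the eye determination gene so (-0.56, 0.306) and the zinc finger gene erm (-0.45, 0.309). The values of bsh (-0.08, 0.933), bab2 (-0.09, 0.876), svp (0.13, 0.867), pdm3 (0.18, 0.624) and sim (0.20, 0.838), transcription factor genes of lamina neurons or their precursors, were near 0. Those of bsh, bab2, svp and sim changed sign in at least 1 alternative fit.

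Hedgehog pathway genes were less stable. The ligand gene hh lies at chr3R:18953425-18967881 and read 21.6 and 20.3 CPM in wild type and 10.6 and 8.48 in ato (2.20-fold lower, log2 -1.14 ± 0.31, edgeR adjusted p = 0.0333). The receptor gene ptc, itself induced by the pathway, read 49.6 and 40.6 CPM against 28.3 and 22.6 (-0.83 ± 0.22, 0.0283). Su(fu), which encodes a cytoplasmic inhibitor of the pathway, read 98.8 and 98.6 CPM against 62.5 and 66.3 (-0.62 ± 0.17, 0.0404). These 3 were the calls among 12 tested members, with 0 higher and a median of -0.35, and the count fell to 1 without ato input 1 or ato input 2 and to 0 without wild-type input 1, without wild-type input 2 and with 1 run per library. The hh adjusted p was 0.0625 to 0.143 in those 4 leave-outs and 0.197 with 1 run. For ptc it was 0.145 without ato input 2, 0.268 without wild-type input 1, 0.0694 without wild-type input 2, 0.0759 with 1 run and 0.0632 with the length correction, and for Su(fu) it was 0.0861 to 0.282 without a library and 0.212 with 1 run. The transcription factor gene ci had a log2 change of -0.48 (adjusted p = 0.114), the kinesin-like gene cos of -0.48 (0.271), the ubiquitin ligase adaptor gene rdx of -0.42 (0.129) and the Hedgehog release gene disp of -0.29 (0.437). The member called without ato input 2 was cos, at a log2 change of -1.02 in that fit, and not hh, ptc or Su(fu). The kinase gene fu (-0.17, 0.751), the co-receptor genes boi (-0.22, 0.617) and iHog (-0.10, 0.857), the signal transducer gene smo (-0.06, 0.911) and the acyltransferase gene rasp (0.30, 0.468) completed the list.

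Notch target genes of the E(spl) and Bearded complexes were lower for 7 of 16 members and higher for 0, with a median log2 change of -0.76. The bHLH repressor gene HLHmgamma, now E(spl)mgamma-HLH, lies at chr3R:21825580-21826421 and read 152 and 161 CPM in wild type and 55.9 and 69.4 in ato (2.50-fold lower, -1.32 ± 0.18, edgeR adjusted p = 0.000193). The Bearded family gene malpha in the same complex read 75.0 and 77.9 CPM against 38.3 and 32.3 (2.17-fold lower, -1.12 ± 0.23, 0.00514). Both genes had tight replicates and separated groups. HLHmdelta read 22.0 and 17.2 CPM against 7.79 and 4.74 (-1.65 ± 0.35, 0.00730), lost without ato input 2 (0.0638) or wild-type input 1 (0.0706). The remaining calls were the Bearded family genes m2 (-0.87) and Tom (-0.74) and the bHLH genes HLHm3 (-0.81) and E(spl), now E(spl)m8-HLH (-0.85). Each was lost in 3 or 4 of the leave-outs, at 0.0529 to 0.165, and m2 (0.092) and HLHm3 (0.14) also with 1 run per library. The list's count was 4 without ato input 1 or ato input 2, 2 without wild-type input 1 and 3 without wild-type input 2, and 10 with the length correction. The Notch pathway list itself, which holds the receptor, its ligands and their modifiers, had 0 of 16 called by edgeR and by limma-voom and 1 by the DESeq2 Wald test. Its median was -0.26, with values from -0.59 to 0.09, and 7 of the genes were lower at an unadjusted p below 0.05. Over all genes 2184 of 10224 passed that level in either direction.

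Proneural and sensory organ genes gave few calls. The Achaete-Scute complex gene sc read 50.7 and 60.5 CPM in wild type and 33.4 and 29.7 in ato (log2 -0.82 ± 0.22, edgeR adjusted p = 0.0339), the single call among 13 tested proneural genes, whose median was 0.03. It was lost without ato input 1 (0.0720), ato input 2 (0.132), wild-type input 1 (0.0790) or wild-type input 2 (0.319) and with 1 run per library (0.0848). The zinc finger gene sens, which Atonal activates in sensory precursors, read 8.99 and 10.7 CPM against 0.126 and 1.92 (-3.19 ± 0.75, 0.0140). It was outside the naming rule, with a wild-type mean below 10 CPM, and it is given because it was the single call in the list of 9 chordotonal and ciliated neuron genes. The sens call was lost without ato input 1 (0.0624) and with 1 run per library (0.113). The bHLH gene cato, a member of both lists, had 10 and 8 counts in the wild-type inputs and 0 in both ato inputs, and was not tested. Also untested were the proneural gene amos, with 1 count in ato input 1 alone, and the ciliated neuron gene fd3F, with 0 counts in every input.

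Of the 8 genes that mark T4 and T5 neurons, 3 were lower and 0 higher, with a median log2 change of -0.35. These were dac, described above, grn and Sox102F. The GATA factor gene grn read 39.6 and 32.9 CPM in wild type and 21.1 and 13 in ato (2.14-fold lower, -1.09 ± 0.26, edgeR adjusted p = 0.0137), and its call was lost without ato input 2 (0.113) or wild-type input 1 (0.113). The SOX gene Sox102F read 69.9 and 70.1 CPM against 26.1 and 40.4 (2.10-fold lower, -1.07 ± 0.23, 0.00722), lost without ato input 1 (0.0867). The count of the list was 2 without ato input 1, ato input 2 or wild-type input 1. The other members did not pass the test: AP-2, now TfAP-2 (-0.49, adjusted p = 0.126), SoxN (-0.20, 0.594), bi (-0.12, 0.755), acj6 (0.08, 0.939) and ato. The medulla temporal series list, which holds the factors that optic lobe neuroblasts express in turn, had tll lower as its only call of 8 and a median of -0.18.

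**Figure D2:**
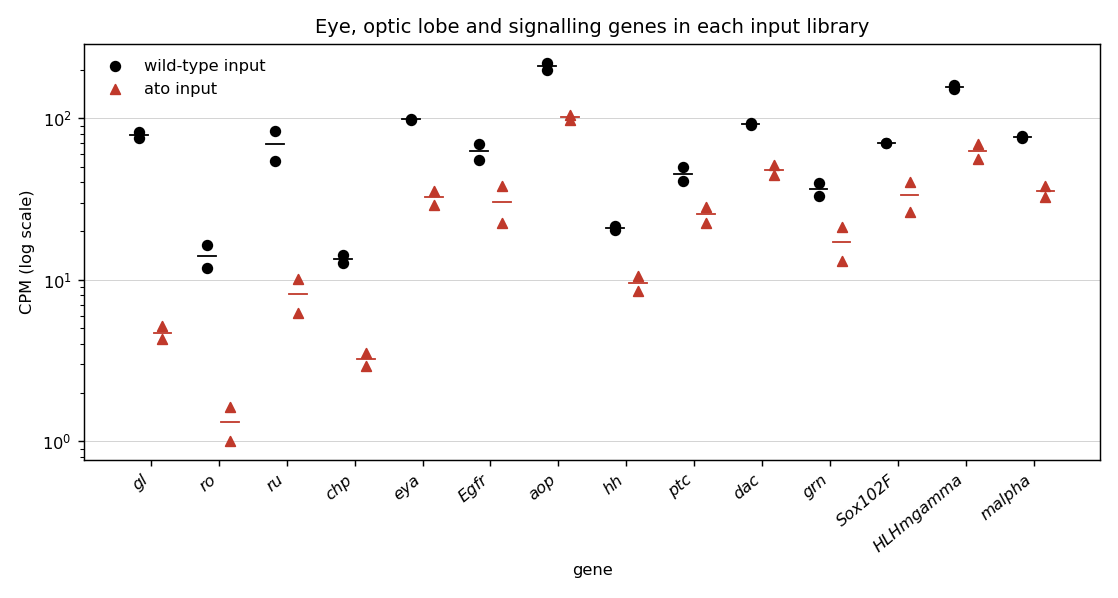
Levels of 14 genes of the eye, lamina, T4 and T5 neurons and of EGF receptor, Hedgehog and Notch signalling in each input library, in CPM on a log scale, with wild type as black circles, ato as red triangles and the mean of 2 libraries as a line. The genes shown were named where the groups did not overlap, an order that 26.4% of all genes had in this direction, and the widest gap is that of gl.

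Neuroblast and cell cycle genes changed in few cases. Imp, which encodes an RNA-binding protein of young neuroblasts and of neurons, lies at chrX:10690030-10716815 and read 119 and 129 CPM in wild type and 236 and 258 in ato (1.99-fold higher, log2 0.99 ± 0.17, edgeR adjusted p = 0.00120). Of the 25 genes for neuroblast identity and timing 3 were higher and 2 lower, with a median of -0.27. The other higher genes were the early factor gene chinmo (166 and 161 CPM against 244 and 312, 0.77 ± 0.18, 0.0156) and the temporal factor gene cas (53.4 and 51.1 against 85.4 and 99.3, 0.82 ± 0.24, 0.0469). The factor genes grh (126 and 130 against 77.3 and 73.1, -0.77 ± 0.20, 0.0280) and klu (74.9 and 78.9 against 47.9 and 46.3, -0.71 ± 0.17, 0.0148) were lower. The calls of these 4 were each lost in 3 or more of the 4 leave-outs, with adjusted p of 0.107 to 0.162 for chinmo, 0.0998 to 0.258 for cas, 0.0894 to 0.188 for grh and 0.0645 to 0.182 for klu. Those of cas (0.0783) and klu (0.3) were also lost with 1 run per library, and cas with limma-voom (0.0511). The cell cycle and DNA replication list had 0 higher and 1 lower of 43, at a median of 0.00. That gene was CycD, at 70.8 and 73.2 CPM against 41.0 and 46.0 (-0.73 ± 0.19, 0.0232), lost without ato input 1 (0.129), wild-type input 1 (0.143) or wild-type input 2 (0.220) and with 1 run per library (0.290).

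Genes of mature neurons were higher in places. The potassium channel gene slo, the calcium-activated channel, read 4.09 and 5.66 CPM in wild type and 13.1 and 15.5 in ato (2.95-fold higher, log2 1.56 ± 0.28, edgeR adjusted p = 0.00210). Among 18 voltage-gated channel genes 3 were higher and 0 lower, with a median of 0.53. The 18 genes summed to 226 and 232 CPM in wild type and 289 and 357 in ato. Low-level genes as a whole had positive medians too, as given above. The potassium channel gene Shab read 7.93 and 5.37 CPM against 22.4 and 15.0 (1.48 ± 0.28, 0.00320), where 16.4% of its exon length overlaps another gene, and was lost without ato input 1 (0.0533) or wild-type input 2 (0.0664). The pacemaker channel gene Ih read 26.2 and 27.1 CPM against 44.1 and 64.0 (1.02 ± 0.23, 0.0105), lost without ato input 2 (0.107), wild-type input 1 (0.0861) or wild-type input 2 (0.0832). The count of the channel list was 2 without ato input 1, ato input 2 or wild-type input 1 and 1 without wild-type input 2, but 5 with DESeq2 size factors and 6 with the length correction.

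Several neuropeptide genes were higher. Leucokinin, which encodes a peptide hormone of water balance, lies at chr3L:14553234-14553864 and read 22.1 and 18.3 CPM in wild type and 61.1 and 47.6 in ato (2.68-fold higher, log2 1.42 ± 0.26, edgeR adjusted p = 0.00197). Crz, which encodes corazonin, lies at chr3R:10140658-10141439 and read 15.3 and 13.5 CPM against 44.3 and 35.7 (2.78-fold higher, 1.47 ± 0.27, 0.00216). These genes are used by small sets of neurons, and for both the ato libraries were well above the wild-type ones. In the list of 24 neuropeptide genes 6 were higher and 0 lower, 23 values were above 0 and the median was 1.10. Fmrf read 10.8 and 6.74 CPM against 22.8 and 30.8 (1.61 ± 0.33, 0.00554), lost without ato input 2 (0.0525) or wild-type input 2 (0.0992). The gene capa read 9.97 and 16.1 CPM against 42.4 and 28.7 (1.45 ± 0.33, 0.0115), lost without ato input 1 (0.155) or wild-type input 1 (0.137) and with the length correction (0.0769). The peptide gene sNPF (1.22) and the insulin-like peptide gene Ilp5 (1.18) were the other calls, the first lost without wild-type input 2 (0.0650) and the second without ato input 1 (0.220), wild-type input 1 (0.164) or wild-type input 2 (0.163) and with the length correction (0.277). The list's count was 4 without ato input 1 or wild-type input 1, 5 without ato input 2 and 3 without wild-type input 2.

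Transmitter and synapse lists had 2 calls each, all higher. In the transmitter list, with a median of 0.56 over 15 genes, they were Gad1, the enzyme gene for GABA, at 66.5 and 96.6 CPM in wild type and 127 and 198 in ato (log2 1.00 ± 0.24, edgeR adjusted p = 0.0187), and Trh, the enzyme gene for serotonin, at 10.2 and 11.2 CPM against 17.9 and 31.4 (1.20 ± 0.33, 0.0331). Neither held without ato input 2 (0.161 and 0.250) or wild-type input 1 (0.219 and 0.171), and Trh was also lost without wild-type input 2 (0.126) and with limma-voom (0.0609). Among 20 genes of synaptic vesicles and active zones, with a median of 0.19, n-syb read 82.7 and 81.9 CPM against 122 and 151 (0.73 ± 0.18, 0.0214) and cpx read 204 and 247 against 298 and 481 (0.79 ± 0.22, 0.0338). Both encode regulators of vesicle fusion. The n-syb call was lost without ato input 2 (0.129), wild-type input 1 (0.160) or wild-type input 2 (0.205) and with 1 run per library (0.0501), and the cpx call without ato input 2 (0.296), wild-type input 1 (0.264) or wild-type input 2 (0.0832). In the list of 7 neuronal markers, n-syb and the sodium pump subunit gene nrv3 (156 and 150 CPM against 277 and 319, 0.96 ± 0.19, 0.00490) were higher, with a median of 0.28. The other 5 were not called, and of the 7 values 4 were above 0 and 3 below, from -0.40 to 0.96. The nrv3 call was lost without wild-type input 2 (0.0656). The nicotinic acetylcholine receptor list had 1 of 10 higher, nAcRbeta-64B (0.97 ± 0.24, 0.0188), at a median of 0.60, which was lost without ato input 2 (0.109), wild-type input 1 (0.108) or wild-type input 2 (0.145).

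The large families of guidance and recognition genes barely differed. Of 40 axon guidance and adhesion genes 0 were higher and 2 lower, with a median log2 change of -0.16. They were hbs, which encodes an immunoglobulin adhesion protein (86.0 and 82.8 CPM against 55.2 and 41.2, -0.81 ± 0.19, edgeR adjusted p = 0.0141), and Sema-1b, a semaphorin gene (123 and 113 against 72.8 and 75.3, -0.67 ± 0.17, 0.0204). The hbs call was lost without ato input 2 (0.112), wild-type input 1 (0.116) or wild-type input 2 (0.0972) and with 1 run per library (0.0585), and the Sema-1b call without each input (0.0602 to 0.214) and with 1 run (0.0703). Of 53 tested genes of the dpr, DIP, beat and side families, which encode immunoglobulin proteins used in synaptic pairing, dpr18 alone was called (16.6 and 19.2 CPM against 36.0 and 39.4, 1.07 ± 0.26, 0.0170), and the median was 0.19. The dpr18 call was lost without each of the 4 inputs (0.0589 to 0.157).

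Glial genes included a strong increase. Gs2, the glutamine synthetase gene of glia, lies at chrX:11316888-11324228 and read 121 and 124 CPM in wild type and 454 and 543 in ato, without overlap. It was 4.06-fold higher (log2 2.02 ± 0.17, edgeR adjusted p = 1.93e-06). Of the 17 glial genes 5 were higher and 1 lower, with a median of 0.31. The glutamate transporter gene Eaat1 read 93.4 and 70.8 CPM against 151 and 169 (0.96 ± 0.18, 0.00320), lost without wild-type input 2 (0.125). The astrocyte gene CG11910, now alrm, read 51.4 and 46.5 CPM against 76.3 and 115 (0.97 ± 0.21, 0.00966), lost without ato input 2 (0.110) or wild-type input 2 (0.122). The transporter gene Mdr65 of the blood-brain barrier read 31.0 and 27.4 CPM against 58.1 and 76.3 (1.20 ± 0.28, 0.0121), lost without ato input 2 (0.0709) or wild-type input 2 (0.0918). The glial sodium pump subunit gene nrv2 was at 292 and 249 CPM against 416 and 505 (0.77 ± 0.18, 0.0130), lost without ato input 2 (0.0883) or wild-type input 2 (0.229). The G protein regulator gene loco went the other way, at 179 and 168 CPM against 96.9 and 114 (-0.71 ± 0.21, 0.0491), a call lost without each input (0.0641 to 0.261), with DESeq2 size factors (0.0519) and with the filter of 5 CPM (0.0579). The number of higher glial genes was 2 without ato input 2 and 1 without wild-type input 2.

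In glycolysis nearly the whole list was higher. ImpL3, the lactate dehydrogenase gene (now Ldh), lies at chr3L:6252592-6255793 and read 26.0 and 18.7 CPM in wild type and 395 and 339 in ato. It was 16.4-fold higher (log2 4.04 ± 0.22, edgeR adjusted p = 1.45e-08). The phosphoglycerate mutase gene Pglym78 read 176 and 175 CPM against 546 and 527 (3.06-fold, 1.61 ± 0.16, 5.13e-06), and the aldolase gene Ald read 952 and 884 against 2537 and 2840 (2.93-fold, 1.55 ± 0.17, 1.6e-05). The glucose phosphate isomerase gene Pgi read 243 and 213 CPM against 434 and 563 (2.19-fold, 1.13 ± 0.17, 0.000541). For these enzymes both ato libraries were far above both wild-type libraries, an order that held for 27.6% of all genes. Of the 14 genes in the list 12 were higher and 0 lower, all 14 values were above 0 and the median was 0.77. The other calls had smaller changes: the phosphofructokinase gene Pfk (1.03), Gapdh1 (0.93), Gapdh2 (0.83), the hexokinase gene Hex-A (0.71), the enolase gene Eno (0.64), the trehalase gene Treh (0.62), the pyruvate kinase gene PyK (0.60) and the triose phosphate isomerase gene Tpi (0.58). The count was 8 without ato input 1 or ato input 2, 7 without wild-type input 1 and 5 without wild-type input 2, and the 5 genes called in each leave-out were ImpL3, Pglym78, Ald, Pgi and Pfk. The calls of Eno (0.0536 to 0.191) and PyK (0.0722 to 0.284) were lost without each input, those of Hex-A (0.132 to 0.192) and Tpi (0.173 to 0.401) without 3 of the 4, and those of Gapdh1 (0.0553) and Gapdh2 (0.0996) without wild-type input 2. Treh was lost without each input (0.0832 to 0.326), with the replicate block (0.0513) and with 1 run per library (0.137).

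Muscle genes were also higher. The myosin heavy chain gene Mhc lies at chr2L:16766737-16788766 and read 3.19 and 2.44 CPM in wild type and 29.3 and 15.1 in ato (7.77-fold higher, log2 2.96 ± 0.46, edgeR adjusted p = 0.000557). The myosin light chain gene Mlc1 read 7.68 and 7.62 CPM against 77.7 and 39.6 (7.63-fold, 2.93 ± 0.31, 1.32e-05), and Mlc2 read 15.5 and 10.7 against 125 and 65.6 (7.22-fold, 2.85 ± 0.33, 2.85e-05). The troponin I gene wupA read 6.95 and 3.42 CPM against 48.8 and 21.3 (6.64-fold, 2.73 ± 0.41, 0.000447). In each of these genes ato input 1 was above ato input 2, as in the summed level of the list, 622 against 350 CPM. Of the 12 tested genes 9 were higher and 0 lower, with a median of 2.40 and values from -0.69 to 2.96, and 7 to 10 were higher in the 4 leave-outs. Muscle is not a tissue of the brain itself, and the part of this muscle RNA in the other results was not tested.

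Genes of blood cells, basement membrane and fat body followed in part. The hemolectin gene Hml of hemocytes read 10.6 and 8.30 CPM in wild type and 41.2 and 47.6 in ato (4.68-fold higher, log2 2.23 ± 0.37, edgeR adjusted p = 0.00116). A second hemocyte gene, He, read 22.0 and 12.1 CPM against 37.3 and 41.4 (1.20 ± 0.28, 0.0131), lost without ato input 2 (0.0535) or wild-type input 2 (0.239), with the length correction (0.0699) and with 1 run per library (0.0896). These were the calls among 9 hemocyte genes, at a median of 0.72, and the 9 genes summed to 727 and 525 CPM in wild type and 799 and 1204 in ato. The count was 3 without ato input 1 and 1 without ato input 2 or wild-type input 2. Basement membrane genes had 3 of 8 higher and a median of 0.94: the perlecan gene trol (24.8 and 34.5 CPM against 76.4 and 61.9, 1.22 ± 0.25, 0.00585) and the collagen IV genes vkg (15.8 and 8.30 against 28.4 and 34.2, 1.37 ± 0.33, 0.0151) and Cg25C (36.8 and 22.8 against 80.3 and 57.1, 1.20 ± 0.27, 0.0103). The trol call was lost without ato input 1 (0.0690) or wild-type input 1 (0.0784), the vkg call without ato input 2 (0.0676) or wild-type input 2 (0.221), and the Cg25C call without ato input 1 (0.154) or wild-type input 2 (0.183). That list's count was 1 without ato input 1 or wild-type input 2. Larval serum protein genes of the fat body were higher in 3 of 7, Lsp1alpha (3.12), Lsp1beta (10.2 and 0.977 CPM against 28.9 and 27.2, 2.29 ± 0.59, 0.0235) and Lsp1gamma (9.40 and 3.61 against 27.3 and 14.9, 1.68 ± 0.44, 0.0256), with a median of 1.45. Lsp1alpha was lost without ato input 2 (0.0608) or wild-type input 2 (0.151) and with 1 run per library (0.116), Lsp1beta without ato input 1 (0.0894) or wild-type input 2 (0.0804) and with the DESeq2 Wald test (0.186), and Lsp1gamma without ato input 1 (0.283) or wild-type input 2 (0.248) and with 1 run per library (0.0594). The wild-type inputs differed from each other in this list, at 146 and 55.4 CPM in sum, and the count was 1 without ato input 1, 2 without ato input 2, 6 without wild-type input 1 and 0 without wild-type input 2.

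Some digestive enzyme genes were near or at 0 in the wild-type inputs and detected in the ato inputs. The trypsin-like protease gene yip7, at chr3L:6028330-6029279, had 0 counts in both wild-type inputs and read 21.5 and 93.8 CPM in ato, at least 462-fold higher against a floor of 3 counts over the group (edgeR adjusted p = 0.000105, 0.0692 with limma-voom). Jon25Bi was likewise at 0 in wild type and at 4.65 and 16.8 CPM in ato, at least 85.1-fold higher (0.00121). Jon65Aiv read 0.409 and 0 CPM against 20.7 and 62.3 (log2 7.47 ± 0.99, 0.000127, lost with limma-voom at 0.0611), and Jon65Aiii read 0.327 and 0.195 against 9.81 and 35.1 (6.34 ± 1.04, 0.000984). In all 4 genes ato input 2 was well above ato input 1. All 7 tested genes of the gut list of 22 were higher, and the other 15 did not pass the filter on low counts, 7 of them at 0 counts in all inputs. A gene that is at 0 in wild type passes this filter only through its level in ato, so the 7 of 7 is not read as a result about the list. The 7 genes summed to 0.735 and 0.195 CPM in wild type and 63.5 and 229 in ato. Other genes at 0 in both wild-type inputs included the lysozyme gene LysS, at 6.29 and 10.6 CPM in ato and at least 65.0-fold higher, and CG14265, at 15.3 and 3.23 CPM and at least 64.6-fold higher.

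Salivary gland glue genes moved in the other direction. Sgs7 lies at chr3L:11502961-11503347 and read 26.5 and 12.3 CPM in wild type and 0.251 and 0 in ato, where the ratio of summed counts was 179 with a 95% counting interval of 49.2 to 1481. Its edgeR adjusted p was 4.41e-06. Of the 6 glue genes 4 were lower, with Sgs3 at -6.0, Sgs5 at -3.96 and Sgs8 at -3.90 on the log2 scale, and a median of -4.98. Sgs3, Sgs7 and Sgs8 are neighbours on 3L, and whether they share reads was not tested. The 6 glue genes summed to 51.6 and 20.4 CPM in wild type and 0.251 and 1.61 in ato. Sgs3 was lost without ato input 1 (0.0646) or wild-type input 1 (0.136) and with 1 run per library (0.106), Sgs5 without the same libraries (0.0877 and 0.193), with 1 run (0.0949) and with limma-voom (0.0672), and Sgs8 without ato input 1 (0.219), wild-type input 1 (0.308) or wild-type input 2 (0.0528) and with the replicate block (0.0552). Glue genes are made in the salivary gland late in the last instar, and the labels give no finer stage than the instar.

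**Figure D3:**
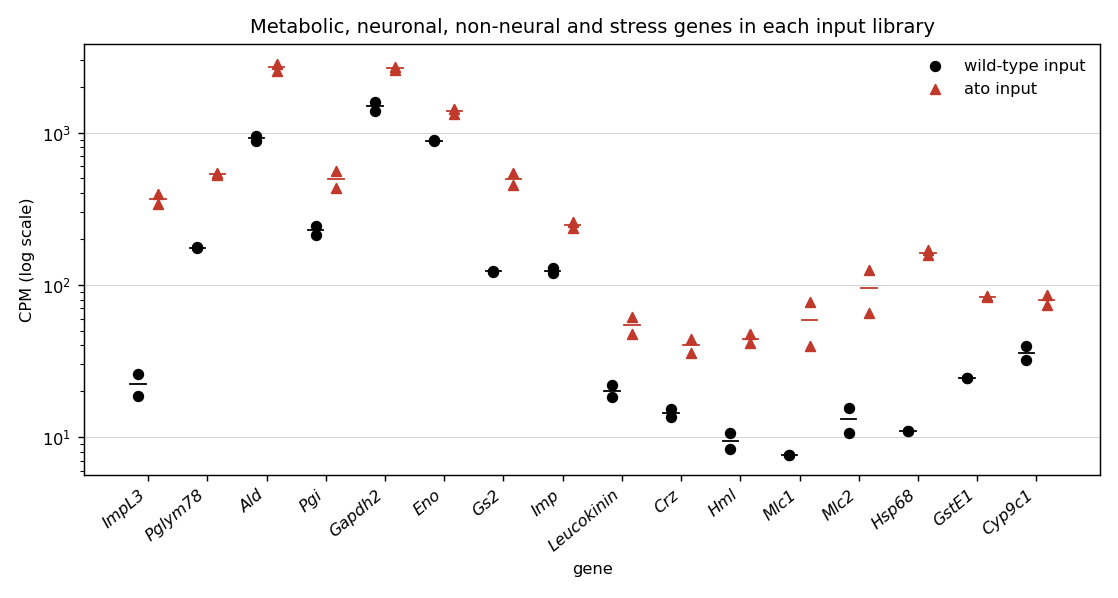
Levels of 16 genes of glycolysis, glia, neuroblasts, neuropeptides, hemocytes, muscle and the stress response in each input library, in CPM on a log scale, with wild type as black circles, ato as red triangles and the mean of 2 libraries as a line. The genes shown were named where the groups did not overlap, an order that 27.6% of all genes had in this direction, and the widest gaps are those of ImpL3 and Hsp68.

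Several genes of the ecdysone response were lower. The nuclear receptor gene Eip78C, induced by the moulting hormone, lies at chr3L:21220019-21257721 and read 24.0 and 33.7 CPM in wild type and 6.79 and 7.06 in ato (4.15-fold lower, log2 -2.05 ± 0.28, edgeR adjusted p = 0.000179). ImpE2, a gene first found as ecdysone-induced in imaginal discs, read 968 and 916 CPM against 524 and 311 (2.26-fold lower, -1.17 ± 0.20, 0.00141). The nuclear receptor gene Hr39 read 162 and 169 CPM against 89.9 and 68.4 (-1.07 ± 0.20, 0.00247), and the transcription factor gene Eip93F read 105 and 109 against 54.7 and 51.6 (-1.01 ± 0.20, 0.00399). All 4 genes had separated groups and kept their calls. In the list of 18, 6 were lower and 2 higher, with a median of -0.63. The transcription factor genes br (579 and 572 CPM against 328 and 356, -0.75 ± 0.21, 0.0339) and Eip75B (260 and 282 against 168 and 182, -0.63 ± 0.16, 0.0216) were the other lower genes. Both were lost without each input, br at 0.0736 to 0.175 and Eip75B at 0.0503 to 0.259, and Eip75B also with 1 run per library (0.0800). The higher genes were ftz-f1, a nuclear receptor gene expressed when the hormone has fallen (5.07 and 5.86 CPM against 14.2 and 21.7, 1.72 ± 0.37, 0.00740), and ImpL1 (1.63 and 5.18 against 33.4 and 14.7, 2.83 ± 0.62, 0.00911). The ftz-f1 call was lost without ato input 2 (0.0672) or wild-type input 1 (0.0581), and the ImpL1 call without ato input 1 (0.124) or wild-type input 1 (0.0581). Among 7 ring gland genes the ecdysone synthesis gene dib was lower (24.9 and 18.7 CPM against 7.29 and 11, -1.25 ± 0.32, 0.0221) and the adipokinetic hormone gene Akh higher (39.4 and 33.7 against 81.8 and 56.7, 0.92 ± 0.25, 0.0328), with a median of 0.28. The dib call was lost without ato input 1 (0.166) or wild-type input 1 (0.210) and with 1 run per library (0.352). The Akh call was lost without ato input 1 (0.333), wild-type input 1 (0.0962) or wild-type input 2 (0.278), with 1 run per library (0.152) and with the length correction (0.288).

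Heat shock genes were split between strong increases and little change. Hsc70-2, which encodes a member of the Hsp70 family, lies at chr3R:8870481-8873112 and read 0.490 and 0 CPM in wild type and 86.6 and 123 in ato (log2 8.55 ± 0.51, edgeR adjusted p = 3.21e-08). Hsp70Ba had 0 counts in both wild-type inputs and read 16.3 and 15.4 CPM in ato, at least 119-fold higher (2.75e-06). Hsp68 read 10.9 and 11 CPM against 156 and 169 (14.8-fold higher, 3.89 ± 0.33, 1.93e-06). The Hsp70 genes are near-identical copies whose reads cannot be assigned with certainty, and Hsp70Bc read 1.88 and 0 CPM against 26.0 and 28.6 (4.76 ± 0.60, 7.81e-05). The small heat shock gene Hsp26 was at 359 and 445 CPM against 924 and 918 (1.20 ± 0.23, 0.00397). Of the 17 tested genes, from a list of 25, 5 were higher and 1 was lower, with a median of 0.28. The other 8 did not pass the filter on low counts, 4 of them at 0 counts in all inputs. Hsc70-2 and Hsp70Ba, near 0 in wild type, passed this filter through their level in ato, so the 5 of 17 is not read as a result about the list. The lower gene was the small chaperone gene Hsp67Bc (346 and 417 CPM against 245 and 193, -0.80 ± 0.22, 0.0325), whose call was lost without ato input 2 (0.156), wild-type input 1 (0.0521) or wild-type input 2 (0.280).

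Detoxification genes rose in part. The glutathione S-transferase gene GstD5 read 0.409 and 0.781 CPM in wild type and 22.4 and 31.7 in ato (45.4-fold higher, log2 5.51 ± 0.52, edgeR adjusted p = 4.41e-06). GstE1 read 24.3 and 24.6 CPM against 84.1 and 82.9 (3.42-fold, 1.77 ± 0.20, 2.52e-05), GstE6 read 2.21 and 0.977 against 15.5 and 15.1 (3.24 ± 0.52, 0.000741), and GstD9 read 10.3 and 12.1 against 35.7 and 36.4 (1.69 ± 0.35, 0.00552). The replicates of GstE1, GstE6 and GstD9 lay close together in ato, and those of GstD5 less so. Of 31 tested glutathione S-transferase genes 8 were higher and 0 lower, with a median of 0.39, and 5 to 7 were higher in the 4 leave-outs. With the length correction the list's median was 0.09. Another 4 members of the list did not pass the filter on low counts, and GstD5 passed it through its level in ato. The genes form clusters of similar copies, whose reads may be shared. Of 49 tested cytochrome P450 genes, from a list of 80, 8 were higher and 0 lower, with a median of 1.10. The other 31 did not pass the filter on low counts, 11 of them at 0 counts in all inputs. The tested values reached a log2 change of 7.17. A member near 0 in wild type passes this filter only through its level in ato, so the 8 of 49 and the median are not read as a result about the list. The higher P450 genes included Cyp28a5 (0.654 and 1.27 CPM against 10.4 and 10.9, 3.47 ± 0.50, 0.000297), Cyp4g15 (34.4 and 26.4 against 74.9 and 93.0, 1.47 ± 0.25, 0.00147) and Cyp9c1 (31.9 and 39.5 against 73.8 and 86.2, 1.16 ± 0.19, 0.00101). The P450 count was 5 without wild-type input 1 and 4 without wild-type input 2 or with 1 run per library.

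Lists of immunity, cuticle, chemoreception and development had few calls. In the antimicrobial peptide and recognition list 1 of 15 tested genes was higher, the receptor gene PGRP-LC (6.78 and 5.27 CPM against 19.1 and 11.2, log2 1.32 ± 0.37, edgeR adjusted p = 0.0387), and it was lost without ato input 1 (0.357), wild-type input 1 (0.0966) or wild-type input 2 (0.282), with 1 run per library (0.125) and with limma-voom (0.0637). In the cuticle list 3 of 42 were higher, all below 10 CPM, and in the list of odorant, gustatory and ionotropic receptors 2 of 52 were higher and 1 lower. The lower gene was Ir76a, at 9.07 and 17.7 CPM in wild type and 1.01 and 2.32 in ato (7.81-fold lower, -2.97 ± 0.51, 0.00135). Hox genes had Scr lower (48.8 and 57.2 CPM against 28.5 and 22.1, -1.07 ± 0.21, 0.00399, lost without wild-type input 2 at 0.0707) and Ubx higher (10.3 and 8.50 against 21.9 and 16.1, 1.01 ± 0.29, 0.0416) of 7. The Ubx call was lost without ato input 1 (0.295), wild-type input 1 (0.108) or wild-type input 2 (0.306), with limma-voom (0.0926), with 1 run per library (0.309) and with only the 4 inputs in the fit (0.0506). In the Dpp and Activin list the ligand gene daw was higher (20.9 and 25.5 CPM against 52.8 and 57.1, 1.25 ± 0.25, 0.00466, lost without wild-type input 1 at 0.0656), the single call of 15. In the Wingless list Wnt2 was lower (40.8 and 35.3 against 21.2 and 19.0, -0.92 ± 0.24, 0.0241), the single call of 20, and lost without each input (0.0621 to 0.209). The Wingless count was 4 without a filter and with the DESeq2 Wald test, 3 with the length correction and with only the 4 inputs, and 2 with limma-voom and the replicate block. The caspase gene Ice, now Drice, was lower (195 and 187 CPM against 129 and 114, -0.65 ± 0.18, 0.0316), the single call of 16 apoptosis genes, and was lost without each input (0.0532 to 0.230) and with 1 run per library (0.116). The sex determination gene fru was higher (6.05 and 9.57 against 20.4 and 20.4, 1.39 ± 0.27, 0.00339, lost without wild-type input 1 at 0.0795), the single call of 8 genes of dosage compensation and sex determination. The medians were -0.23 for Dpp and Activin, -0.28 for Wingless, -0.33 for apoptosis, -0.35 for dosage compensation and 0.24 for the Hox genes. They were 1.83 for antimicrobial and recognition genes, with 13 of 15 values above 0, 0.82 for cuticle and 0.24 for the odorant, gustatory and ionotropic receptors. In the last lists, in this order, 23 of 38, 98 of 140 and 124 of 176 members did not pass the filter on low counts. The medians of these filtered lists are not read as a result. The 4 tracheal genes had 0 calls by edgeR, DESeq2 and limma-voom, 1 at an unadjusted p below 0.05 and a median of -0.30. The 1 tested fertility gene of the Y chromosome had 0 counts in every input.

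Few genes of housekeeping complexes were called. Among 86 tested cytosolic ribosomal protein genes 83 had values above 0, with a median log2 change of 0.35, but 2 were called, the low paralog gene RpS5b (6.45 and 5.37 CPM in wild type and 21.1 and 16.4 in ato, 1.66 ± 0.33, edgeR adjusted p = 0.00407, lost without wild-type input 2 at 0.0530) and RpS14b (394 and 354 against 675 and 513, 0.67 ± 0.19, 0.0436). RpS14b was lost without ato input 1 (0.363), wild-type input 1 (0.141) or wild-type input 2 (0.341), with the length correction (0.503) and with 1 run per library (0.0512), and it has a near-identical copy. Respiratory chain genes had 3 of 69 higher, CG9603 (0.67), CG6463 (0.81) and CG18624 (0.64), and a median of 0.30, with 0 higher without ato input 1 or either wild-type input. CG6463 was lost without ato input 1 (0.298), wild-type input 1 (0.18) or wild-type input 2 (0.21), with 1 run per library (0.0674) and with the length correction (0.314). CG18624 was lost without each input (0.0638 to 0.317), with the replicate block (0.0512), with 1 run per library (0.208) and with the length correction (0.408). With a correction for exon length the medians were -0.01 for ribosomal proteins and -0.05 for the respiratory chain, and the respiratory count was 0. Short genes had higher values as a whole: the median log2 change fell from 0.30 in the sixth of genes with the shortest exons, 72 to 971 bases, to -0.19 in the sixth with the longest, from 3991 bases. Neither edgeR, DESeq2 nor limma-voom called any of 72 mitochondrial ribosomal protein genes (median 0.21, 6 at an unadjusted p below 0.05), 32 proteasome genes (-0.17, 2), 42 translation factor genes (0.05, 1) or 52 small nuclear and nucleolar RNAs (-0.03, 1). Over all tested genes 2184 of 10224 had an unadjusted p below 0.05. Of 25 vacuolar proton pump genes 3 were higher, VhaPPA1-1 (0.70 ± 0.16, 0.0109), Vha13 (0.74 ± 0.19, 0.0234) and CG8029 (0.71 ± 0.16, 0.0131), with a median of 0.41. All 3 were lost without wild-type input 1 (0.107, 0.141 and 0.136) or wild-type input 2 (0.196, 0.205 and 0.167), Vha13 also without ato input 1 (0.228) and with the length correction (0.128), and CG8029 also without ato input 2 (0.0786).

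**Figure D4:**
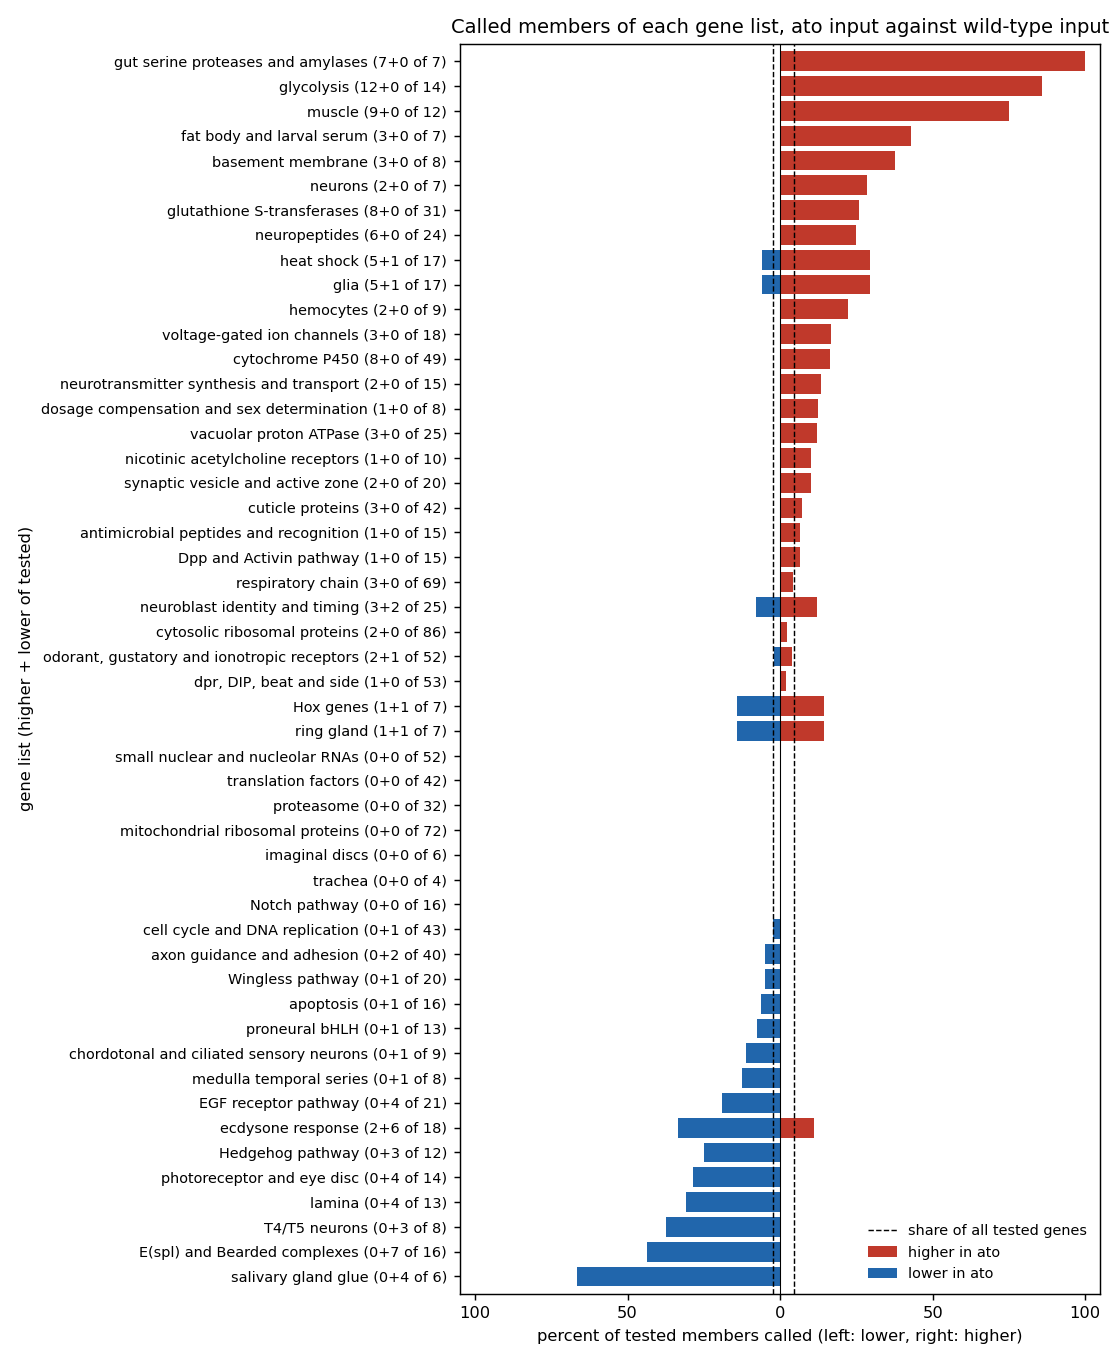
Percent of the tested members of each gene list that were called, lower in ato to the left in blue and higher to the right in red, with the counts in brackets and dashed lines at the shares of all tested genes, 4.64% higher and 2.34% lower. Glycolysis and muscle reach far to the right, and glue, E(spl), T4/T5, ecdysone response, lamina and photoreceptor lists to the left. The gut bar covers only the 7 of 22 members that passed the filter on low counts and is not read as a result. The heat shock bar covers 17 of 25 and the cytochrome P450 bar 49 of 80, and neither is read as one.

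Several of the largest changes belonged to genes outside these lists. CG3984, at chr3R:10962884-10964626, read 13.5 and 14.9 CPM in wild type and had 0 counts in both ato inputs, at least 84.2-fold lower (edgeR adjusted p = 7.97e-06). The gene qua (quail), which encodes an actin-binding protein of the villin family, lies at chr2L:17486806-17497203 and read 31.9 and 24.4 CPM against 1.38 and 0.505 (30.5-fold lower, log2 -4.93 ± 0.51, 1.3e-05). Genes without a given name followed: CG6912 (23.3 and 25.9 against 1.01 and 0.706, 28.7-fold lower), CG9150 (32.4 and 36.6 against 1.13 and 2.42, 18.9-fold) and CG5653 (17.3 and 24.0 against 0.754 and 2.12, 13.9-fold). CG34377 read 85.3 and 91.1 CPM against 16.1 and 14.8 (5.71-fold lower) and CG13858, which current annotation joins to it, 14.9 and 17.4 against 1.76 and 2.32 (7.81-fold). All of these kept their calls. Among the largest increases, CG17826 read 0.163 and 0 CPM against 15.3 and 10.3, with a count ratio of 141 and a 95% interval of 38.6 to 1171. CG10725 read 0.409 and 0 against 27.2 and 16.8 (6.56 ± 0.85, 0.000105), the protease inhibitor gene m1 0.327 and 0 against 14.3 and 8.38 (5.92 ± 1.11, 0.00273) and the mucin gene Muc96D 0.899 and 0 against 20.9 and 26.0 (5.58 ± 0.72, 0.000105). CG17134 differed more between the ato inputs, at 29.3 and 2.83 CPM against 0.327 and 0, and its call was lost without ato input 1 (0.148) and with limma-voom (0.233).

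The abundant called genes changed less. The long noncoding RNA gene noe, at chr3L:17393447-17394448, was the most abundant, at 8387 and 8611 CPM in wild type and 17426 and 15366 in ato (1.93-fold higher, log2 0.95 ± 0.22, edgeR adjusted p = 0.0145). Its call was lost without ato input 1 (0.0706), wild-type input 1 (0.0614) or wild-type input 2 (0.0617). The neuronal gene Arc1, whose product forms capsids that carry RNA, read 723 and 559 CPM against 1309 and 1123 (0.92 ± 0.19, 0.00546), lost without ato input 1 (0.0660) or wild-type input 2 (0.138). The odorant-binding protein gene Obp44a read 632 and 579 CPM against 1477 and 909 (0.98 ± 0.24, 0.0170), lost without ato input 1 (0.273), wild-type input 1 (0.0547) or wild-type input 2 (0.125) and with the length correction (0.0544). On the lower side, the tubulin gene betaTub60D read 664 and 818 CPM against 305 and 341 (2.29-fold lower, -1.20 ± 0.16, 0.000177). The noncoding RNA gene CR42862 read 2103 and 2196 CPM against 1016 and 1433 (-0.81 ± 0.18, 0.0104), lost without ato input 1 (0.0855) or wild-type input 2 (0.0837). The translation factor gene NAT1 (-0.61 ± 0.17, 0.0373), the kinase gene nmo (-0.70 ± 0.16, 0.0125) and the microtubule-associated protein gene Map205 (-0.55 ± 0.15, 0.0381) were also lower and each lost its call in 3 or 4 of the leave-outs, at 0.0883 to 0.304, 0.0637 to 0.184 and 0.0783 to 0.356, and NAT1 also with 1 run per library (0.0617).

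The share of genes called was higher on chromosome 3, which carries ato, than on the other chromosomes. On arms 3L and 3R together 240 genes were higher and 144 lower of 4511 tested, or 8.51%, and on chromosome 2 and X together 5.78%, with 9.19% on 3L, 7.96% on 3R, 6.23% on 2R, 5.68% on 2L and 5.37% on X. Genes lying close to ato were called at a lower share than the rest of its arm: 3.42% of 117 genes within 0.5 Mb, 4.17% of 192 within 1 Mb, 6.91% of 883 within 5 Mb and 8.54% of the 1615 genes farther away. The nearest called genes of at least 10 CPM were the respiratory chain gene CG9603 at 62.0 kb (501 and 500 CPM against 907 and 692, log2 0.67 ± 0.19, edgeR adjusted p = 0.0369) and grn. CG9603 was lost without ato input 1 (0.333), wild-type input 1 (0.195) or wild-type input 2 (0.237) and with the length correction (0.402). Next came CG9801 (-0.77 ± 0.19), CG2641 (1.72 ± 0.37), CG8369 (1.78 ± 0.24) and alpha-Est9 (1.46 ± 0.29), of which CG9801 was lost without ato input 1 (0.160) or wild-type input 2 (0.251) and CG2641 without ato input 2 (0.0658) or wild-type input 2 (0.121). In 13 places 3 or more neighbouring tested genes were called in the same direction, 40 genes in all. These places were searched after the values had been seen. They included yip7 with Jon65Aiv and Jon65Aiii, the glue genes Sgs8, Sgs7 and Sgs3, the Hsp70Ba and Hsp70Bc locus, and Hsc70-2 with CG31157 and CG7966. CG6912 and CG3984 lay in a run of lower genes with CG42788, whose call was lost without ato input 1 (0.208), wild-type input 1 (0.0523) or wild-type input 2 (0.136) and with 1 run per library (0.0927). In a run with ImpL1, the neuropeptide-like gene Nplp2 read 23.0 and 25.8 CPM in wild type and 827 and 824 in ato (5.08 ± 0.43, 1.93e-06).

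The same comparison was made in the IP libraries, which come from the same homogenates but are separate libraries. There 480 genes were called, 4.69% of those tested, with 288 higher (2.82%) and 192 lower (1.88%). Of the genes called in whole brain 333, or 46.7%, were also called in the IPs and 0 were called in the opposite direction, and these were 69.4% of the IP calls. The sign was the same for 701 of the 713 whole-brain calls. For the leading genes the IP values lay close to those of the inputs: gl had a log2 change of -3.74 in the IPs, ru of -3.25, eya of -1.77, ImpL3 of 4.15, Hsc70-2 of 8.59 and GstD5 of 5.46. Others were smaller in the IPs: slo was at 0.34 (edgeR adjusted p = 0.539) and Shab at 0.36 (0.531), Gs2 at 1.34 and yip7 at 6.61. The test of the difference between the input and IP effects called 0 genes by edgeR, with a smallest adjusted p of 0.307 and 436 genes at an unadjusted p below 0.05. The DESeq2 Wald test called 1 and limma-voom 0. No gene named here is therefore shown to differ between whole brain and IP.

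**Figure D5:**
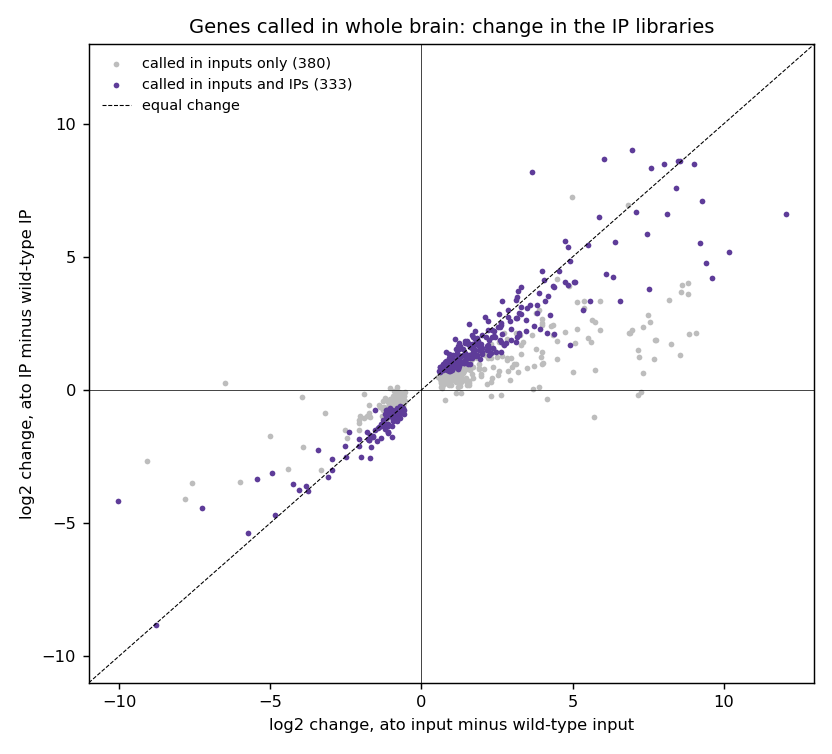
Log2 change from wild type to ato in the IP libraries (vertical) against that in the input libraries (horizontal) for the 713 genes called in whole brain, in purple for the 333 also called in the IPs and in grey for the others. The points follow the dashed line of equal change, and the largest increases in the inputs tend to lie below it.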

How the data were processed

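RNA of 2 whole-brain input libraries and 2 immunoprecipitated libraries per genotype was sequenced in 4 runs each. The deposited values are raw read counts per gene, made by the authors with featureCounts 1.4.4. Its command asked for a mapping quality of 5 or more and set no strand option, per the file headers. Reads had been aligned with TopHat2 2.0.12 to the dm3 genome, per the submitters' processing notes. Because no strand was used, overlapping and antisense genes share reads. Small even counts were in excess in the table (7794 values of 2 against 2777 of 3 and 5980 of 1), so that its counts are not all single independent fragments and counting intervals, which cover counting error only, may be too narrow.

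The runs of each library were summed. All 8 libraries in 4 groups were fitted together with edgeR 4.0.16 in R 4.3.3 (filterByExpr, TMM, quasi-likelihood test, 4 residual degrees of freedom), and p-values were adjusted by Benjamini-Hochberg over the 10224 genes tested. No permutation test was used, since with 2 libraries a group its exact two-sided p is at least 0.33. The alternatives were DESeq2 1.42.0 size factors, no filter on low counts, a filter of 5 CPM in 2 libraries, the DESeq2 Wald test, limma-voom 3.58.1, a replicate block, a lowess correction for exon length, 1 run per library, a fit of the 4 inputs alone and leaving out each input library. The replicate number was not used as a block in the main design, because the labels do not say that it marks a shared day or batch and same-numbered libraries of the 2 genotypes deviated together with a correlation of 0.059 across genes.

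Genes were named where the adjusted p was below 0.05, the higher group had a mean of at least 10 CPM and the groups did not overlap. Of these the text gives the 12 with the largest change and the 6 with the highest level in each direction, up to 4 members of each of 51 gene lists in each direction and the 6 nearest to ato. In any case it gives all members of the photoreceptor, lamina, Hedgehog and T4/T5 lists, the control genes and up to 6 genes at 0 in 1 genotype. Other called members of a list are given where they complete its count, after their values were seen. The comparison, the lists and the rule were chosen with earlier results of these data known. Symbols are those of the deposited table. Current names come from a Release 6 annotation, in which 10669 of 14161 table genes matched by symbol, 2062 by locus tag, 1181 by synonym and 249 not at all. Coordinates are those of the deposited table, on dm3.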

Additional observations from a re-analysis of the deposited data

How the results depend on the processing

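Whole-brain calls kept their direction in every alternative for the 134 called genes among the 170 that the naming rule gives, but 77 of them fell short of the threshold in at least 1 alternative and 57 in none. The main counts were 474 higher and 239 lower. Without a filter on low counts they were 686 and 390, with the correction for exon length 536 and 366, with 1 run per library 355 and 157, and with the DESeq2 Wald test 607 and 328. The 4 fits that left out 1 input library gave 239 to 366 higher and 82 to 243 lower, with the fewest calls without wild-type input 2. The cause of these differences was not tested. A block for the replicate number gave 519 and 270 calls, within 1.5 times of the fit without pairing, and the numbers are not shown to pair the libraries. The test of a difference between the input and IP effects called 0 genes, 9 without a filter on low counts, 1 with the DESeq2 Wald test, and 0 to 3 with 1 library left out. Counts within lists and arms moved by over 1.5 times in 237 of their alternative fits and stayed within it in 1167. The 1167 include counts of 0 that stayed at 0, so they do not measure how stable the other counts were. Values that changed sign all belonged to genes without a call. With the length correction smo was at 0.05, Rh5 at -0.08, bab2 at 0.07 and bi at 0.02. With 1 run per library bab2 was at 0.03, sim at -0.17 and acj6 at -0.9. With limma-voom Rh5 was at -0.31 and Rh6 at -1.16, and with the replicate block Rh6 was at -0.32. Without single libraries the log2 change ranged from -0.19 to 0.09 for smo, -0.38 to 0.24 for iHog, -0.52 to 0.03 for SoxN, -1.36 to 0.77 for Rh5, -0.26 to 0.04 for bsh, -0.36 to 0.22 for bab2, -1.26 to 0.23 for Arr2, -0.17 to 0.49 for svp, -5.81 to 1.04 for Rh6, -0.35 to 4.89 for trp, -0.52 to 0.04 for boi, -0.28 to 0.36 for acj6 and -0.62 to 0.13 for fu. At a floor of 3 counts, 0.245 to 0.366 CPM, the opsins, trp and Arr2 are at the limit of what this depth can show.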

Other observations

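The sign of small changes followed the level of a gene. In the sixth of tested genes with the lowest mean CPM the median log2 change in ato whole brain was 0.58, in the next sixth 0.29, and in the sixth with the highest level -0.09. Genes called higher were likewise most frequent in the second lowest sixth, at 8.98%, and genes called lower in the second highest, at 3.58%. Spearman's rho of the log2 change across genes was -0.237 with the mean CPM and -0.272 with exon length, as a description of genes that share the same 4 libraries, and rho with exon length was 0.027 after the length correction.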
